A study of Saccharomyces cerevisiae with 55 samples.

Results

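The genes described here were 39 enzymes of amino acid synthesis in budding yeast, from the histidine (4 genes), branched-chain (10), lysine (6), threonine (5), aromatic (10) and serine (4) routes. They were taken by gene symbol from the platform annotation, out of 5540 genes measured. Each of the 39 had 1 probe, all 39 passed the filter on missing values, and 1 of their values was missing (SER2 in 1 sample). HIS3, LEU2, LYS2 and TRP1 belong to the same routes but are common selection markers of laboratory strains, so they were kept apart, as were the arginine and sulfur routes.

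RNA of histone H4 mutants was compared with RNA of a parental strain on 2-colour arrays. Each mutant carried arginine, which cannot be acetylated, in place of 1 or more of lysines 5, 8, 12 and 16 in the tail of H4 (K5R, K8R, K12R and K16R). The 15 mutants were the single mutants K5R, K8R, K12R and K16R, the double mutants K5R/K8R, K5R/K12R, K8R/K12R, K5R/K16R, K8R/K16R and K12R/K16R, the triple mutants K5R/K8R/K12R, K5R/K8R/K16R, K5R/K12R/K16R and K8R/K12R/K16R, and the quadruple mutant K5R/K8R/K12R/K16R. The reference was a parental strain with unsubstituted H4, MDY453 on 35 arrays and MDY470 on 20. Each mutant had 3 to 5 samples, 54 in all from 30 strains, 30 samples with K16R and 24 without. K8R/K12R rested on 1 strain, the quadruple mutant on 3 and every other mutant on 2. The quadruple mutant and K5R/K12R/K16R were measured against MDY453 alone and K8R/K12R against MDY470 alone. Titles number 13 of the 55 arrays as biological replicates and 2 as technical ones. One K5R/K12R/K16R array carries both numbers, but it is the only array of its strain, MDY484, and was kept as a sample. The sources used here do not give other alleles of the strains, mating type or growth medium, nor say of the other arrays whether cultures were separate, so p-values measure the spread between these samples, part of which may be technical.

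Values are log2 ratios, likely mutant over parental: the parental strain filled channel 1 on all arrays, and no 2 arrays of 1485 pairs correlated below 0 (lowest r 0.00526 across genes). The sources used here give neither the dyes nor the direction. The 2 arrays of strain MDY487 (r 0.927) were taken as technical replicates and averaged. Only 1 of them is labelled as a technical replicate, and the title of the other carries no replicate label. A gene was called higher or lower where limma's moderated test had a Benjamini-Hochberg adjusted p under 0.05 over the 5540 genes, and all adjusted p-values below come from limma. Arrays carry no measure of depth or signal here, so the number of arrays limits the precision.

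Yeast makes nearly all amino acids from intermediates of central carbon metabolism, and the enzymes of each route act in sequence, often with feedback inhibition of the first step by the end product. Many of these genes share an activator, Gcn4, whose translation increases when amino acids run short and which raises enzymes of many routes together. Single routes have their own regulators as well, among them Leu3 for leucine, Lys14 for lysine and Cha4 for serine use.

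The amino acid genes hardly moved in the single mutants K5R, K8R and K12R, moved mostly upward in mutants with K16R, and moved in both directions in the triple mutant without K16R and in the quadruple mutant. Over the 39 genes and 15 mutants, 125 of 585 pairs were higher (21.4%, against 14.5% of pairs over all genes) and 60 were lower (10.3%, against 14.8%). No member was called in K5R, K8R or K12R by limma (either direction 0.632%, 0.325% and 2.87% of all genes), and unadjusted p under 0.05 was reached by 3 members in K5R, 1 in K8R and 1 in K12R. In the single mutant K16R 10 members were higher and 1 was lower, against 8.65% and 9.78% of all genes.

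The double mutants split in the same way. With K16R, 12 members were higher and 0 lower in K5R/K16R (10.3% and 13.4% of all genes), 8 and 3 in K8R/K16R (9.17% and 11.5%), and 12 and 1 in K12R/K16R (12.7% and 13.3%). The 0 lower members of K5R/K16R were 0 at an unadjusted p under 0.05 too. Without K16R, 1 member was higher and 4 lower in K5R/K8R (10.5% and 9.69% of all genes), 3 and 4 in K5R/K12R (14.9% and 12.7%), and 2 and 1 in K8R/K12R (10.0% and 11.3%). Among the triple mutants with K16R, 13 members were higher and 6 lower in K5R/K8R/K16R (19.2% and 21.0% of all genes). K5R/K12R/K16R had 20 higher and 7 lower (28.8% and 28.0%), and K8R/K12R/K16R had 18 and 6 (23.6% and 23.1%). The triple mutant without K16R had 11 higher and 13 lower members (29.8% and 30.1%), and the quadruple mutant had 15 and 14 (37.2% and 36.6%), shares near those of all genes.

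**Figure D1:**
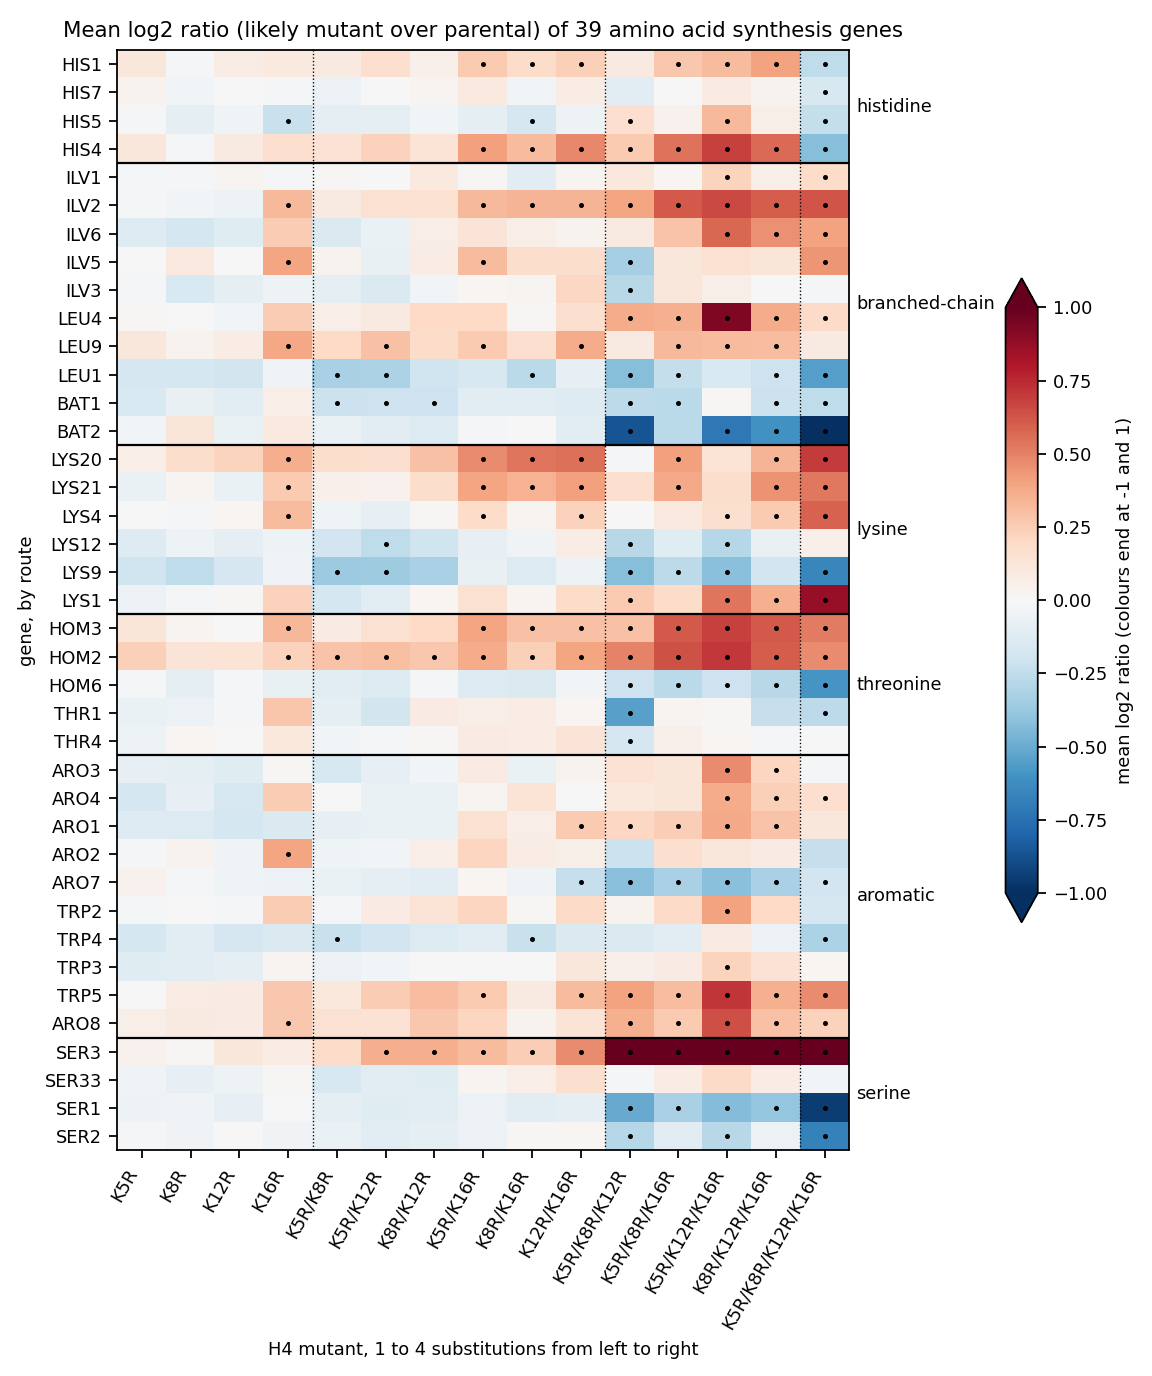
Mean log2 ratio (colour, likely mutant over parental, 3 to 5 samples each) of the 39 genes, down the page by route, in the 15 mutants, from 1 to 4 substitutions. Black dots mark means past the threshold, which are absent from K5R, K8R and K12R. SER3 is high and BAT2, SER1 and SER2 are low at the right, and among the mutants with 3 or 4 substitutions the histidine genes are called lower in the quadruple mutant alone.

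**Figure D2:**
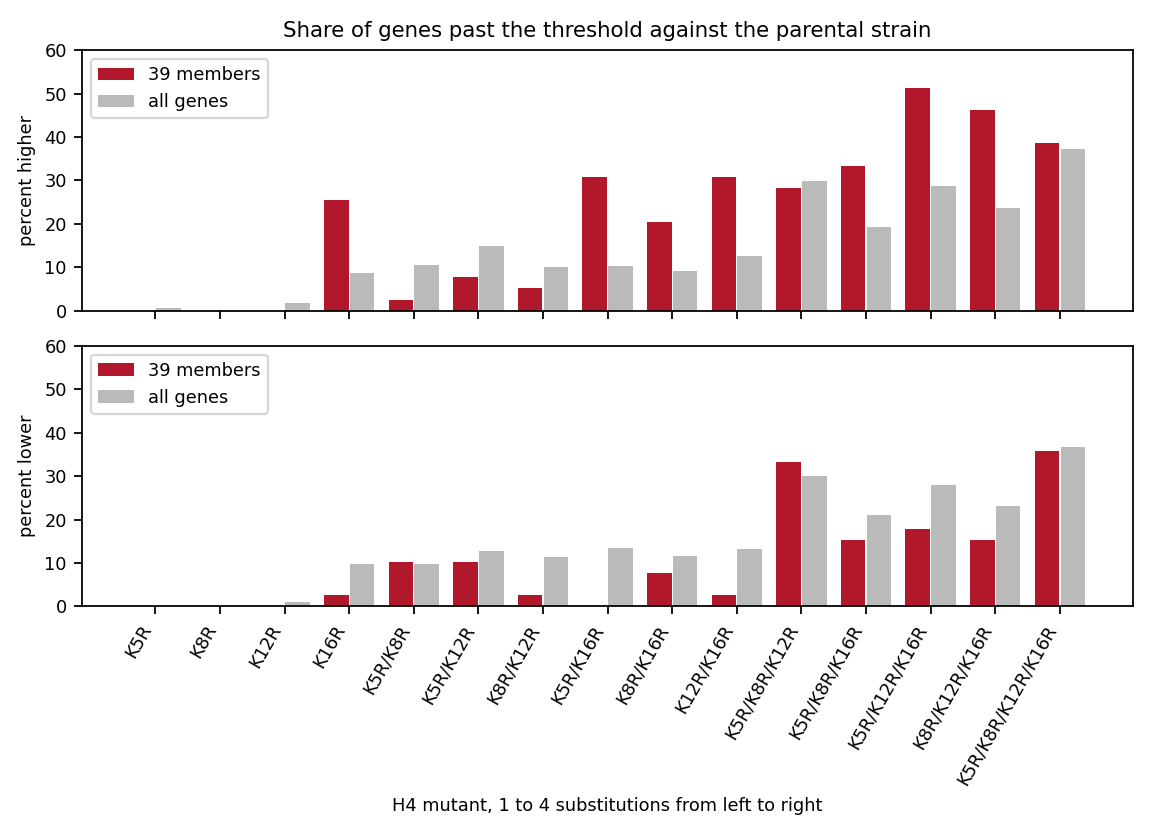
Percent of the 39 members (red) and of all genes measured (grey) called higher (upper panel) or lower (lower panel) in each mutant. In the mutants with K16R other than the quadruple mutant the share of members called higher is above that of all genes, and in the quadruple mutant both shares are near those of all genes.

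In the fit over all samples the K16R effect was called higher for enzymes of 5 of the 6 routes, mostly by small amounts. The effect of a site was estimated over all backgrounds at once, in a model with an intercept and 1 term for each substituted lysine. The K16R effect was higher for 20 members (20.4% of all genes) and lower for 3 (18.9%), with a median of 0.14 over members and 0.00 over all genes. By route, 6 of 10 branched-chain, 4 of 6 lysine, 3 of 5 threonine, 5 of 10 aromatic, 2 of 4 serine and 0 of 4 histidine genes were higher. The median effect was 0.015 over the serine genes and 0.057 over the histidine genes. HIS4 and HIS1 were called higher once the quadruple mutant was left out, as given below. Among arrays against MDY453 alone 13 members were higher and 1 lower (12.3% and 11.7% of all genes), and against MDY470 alone 9 and 0 (4.77% and 7.69%). The 3 lower members, BAT2, HOM6 and SER1, became 5 without the third K8R sample.

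The a-specific genes, which mark haploid a cells, moved with K16R: all 6 (MFA1, MFA2, STE2, STE6, BAR1 and AGA2) were lower (18.9% of all genes), by effects of -3.14 to -2.03. The mean of the 6 in a sample was -3.52 to -1.23 in samples with K16R and -0.02 to 0.38 in samples without it. Of the 10 general stress genes 8 were higher for K16R (20.4% of all genes). Their mean in a sample was 0.18 to 2.48 with K16R and 0.10 to 1.76 without. Among the triple mutants the order was the other way, at 0.926 to 1.425 with K16R and 1.426 to 1.763 without. Whether either list has a part in the changes of the amino acid genes was not tested. RNA of whole cultures was measured, so a change in the mix of cells and a change per cell cannot be told apart.

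In the isoleucine and valine route ILV2, ILV6, ILV5 and ILV3 rose with K16R and ILV1 did not pass the threshold. ILV2, the catalytic subunit of acetolactate synthase, spanned 0.13 to 0.80 (median 0.48) in the 30 samples with K16R and -0.15 to 0.52 (median 0.08) in the 24 without. The samples overlapped: 9 without K16R lay above the lowest with it, of which 5 were K5R/K8R/K12R (0.24, 0.52, 0.33, 0.51 and 0.39), 2 K5R/K12R, 1 K5R/K8R and 1 K8R/K12R. The K16R effect on ILV2 was 0.41 (SE 0.04, adjusted p 9.62e-12), and in all 7 matched pairs of mutants, with and without K16R in the same background, the mean was higher with it. ILV6, the regulatory subunit of the same enzyme, was at -0.27 to 0.94 (median 0.30) in samples with K16R and at -0.47 to 0.35 (median -0.09) in the others, an effect of 0.38 (SE 0.08, adjusted p 0.000193), again with a higher mean in all 7 matched pairs.

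Further along, ILV5, the reductoisomerase, was at -0.16 to 0.69 (median 0.23) with K16R and at -0.37 to 0.38 (median -0.04) without, an effect of 0.28 (SE 0.06, adjusted p 0.000336). ILV5 also fell in the triple mutant K5R/K8R/K12R, to -0.33 ± 0.05 (SD, n = 5, adjusted p 0.00232), while it was 0.44 ± 0.18 (n = 4, adjusted p 1.17e-05) in the quadruple mutant. ILV3, the dihydroxyacid dehydratase, had an effect of 0.17 (adjusted p 0.0275), and the call was lost (adjusted p 0.0506) without the second K5R/K12R sample. ILV1, threonine deaminase, which commits threonine to isoleucine, had an effect of 0.04 (SE 0.04).

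In the leucine branch, LEU4, the main isopropylmalate synthase, and LEU9, a second synthase, had K16R effects of 0.24 (SE 0.07, adjusted p 0.00732) and 0.14 (SE 0.05, adjusted p 0.0366). The LEU9 call was lost in 5 of the 54 fits that left out 1 sample, the K5R/K8R/K16R sample 1, K12R samples 1 and 3, K8R sample 3 and quadruple sample 3, with effects of 0.12 to 0.13. LEU1, isopropylmalate isomerase, was lower in 7 mutants, with means from -0.55 in the quadruple mutant to -0.04 in K16R, and its K16R effect was 0.02 (SE 0.05). The 2 branched-chain aminotransferases are described with the paralogues.

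In lysine synthesis 4 of 6 members rose with K16R. The homocitrate synthases LYS20 and LYS21 and the homoaconitase LYS4 rose with K16R, by 0.30 (SE 0.07, adjusted p 0.00023), 0.34 (SE 0.05, adjusted p 2.01e-07) and 0.28 (SE 0.05, adjusted p 1.42e-05). LYS21 was at 0.07 to 0.70 (median 0.37) in samples with K16R and at -0.28 to 0.32 (median 0.05) in those without, overlapping ranges. LYS20 was at -0.17 to 0.87 (median 0.42) with K16R and at -0.46 to 0.45 (median 0.19) without. Of the later enzymes, LYS1, the saccharopine dehydrogenase that releases lysine, rose by 0.36 (SE 0.07, adjusted p 2.05e-05). LYS12 and LYS9 missed the threshold for K16R (effects 0.10 and 0.04). LYS9, the other saccharopine dehydrogenase, was lower in 6 mutants and higher in 0, with means from -0.66 in the quadruple mutant to -0.04 in K16R.

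In the threonine route, HOM3, aspartate kinase, and HOM2, aspartate semialdehyde dehydrogenase, rose with K16R, by 0.38 (SE 0.05, adjusted p 1.86e-09) and 0.22 (SE 0.05, adjusted p 0.000169). HOM3 was at 0.19 to 0.88 (median 0.42) with K16R and at -0.12 to 0.41 (median 0.11) without, and it was higher in 9 of 15 mutants. HOM2 was higher in 12 of 15 mutants, the most of any member. HOM6, homoserine dehydrogenase, fell by 0.15 (SE 0.05, adjusted p 0.0107); it was at -0.80 to 0.31 (median -0.17) with K16R and at -0.52 to 0.06 (median -0.09) without, and K16R lowered its mean in all 7 matched pairs. THR1, homoserine kinase, had an effect of 0.09 (SE 0.07) that missed the threshold, and THR4, threonine synthase, one of 0.09 (SE 0.04, adjusted p 0.0484), a call lost in 33 of the 54 fits that left out 1 sample.

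In the aromatic route 5 of 10 members rose with K16R, by 0.14 to 0.26. ARO3 and ARO4, the DAHP synthases that open the route, and ARO1, which carries out the middle steps, had effects of 0.18 (SE 0.06, adjusted p 0.00715), 0.23 (SE 0.05, adjusted p 0.000553) and 0.26 (SE 0.06, adjusted p 0.000121). In the tryptophan branch TRP5, tryptophan synthase, rose by 0.21 (SE 0.06, adjusted p 0.00349) and TRP3, a subunit of anthranilate synthase, by 0.14 (SE 0.05, adjusted p 0.0344). The TRP3 call was lost without the second K5R/K12R sample, the second K12R sample or the third quadruple sample, with effects of 0.11 to 0.13. TRP2, the other subunit, had an effect of 0.12 (SE 0.06), and TRP4, anthranilate phosphoribosyltransferase, one of 0.03 (SE 0.05), both short of the threshold. ARO2, chorismate synthase, ARO7, chorismate mutase, which leads to phenylalanine and tyrosine, and ARO8, an aromatic aminotransferase, had K16R effects of 0.12, -0.10 and 0.11, none past the threshold. ARO7 was nevertheless lower in 6 mutants, with means down to -0.42 in K5R/K12R/K16R.

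Substitution of K5, K8 or K12 moved the members in both directions. The mean effect of the 3 sites was higher for 12 members (32.4% of all genes) and lower for 12 (31.5%), with a median of -0.02 over members. Both shares of members were near those of all genes. The highest were SER3 at 0.74, LYS1 at 0.20 (SE 0.04, adjusted p 2.85e-05) and ILV2 at 0.17 (SE 0.02, adjusted p 7.89e-08). The lowest were BAT2 at -0.50, SER1 at -0.28 and SER2 at -0.19, given below. After these came THR1 at -0.18 and LYS9 at -0.17, both short of a call for K16R. By route, 4 branched-chain members were higher and 3 lower, 2 and 1 in lysine, 2 and 3 in threonine, 3 and 2 in aromatic, 1 and 2 in serine, and 0 and 1 in histidine. LEU4 lost its call without the third quadruple sample (0.09). LYS21 lost its call without the third quadruple sample (0.06) or the second K16R sample (0.07). ARO8 did so without the third quadruple sample (0.07) or the second K12R/K16R sample (0.08). THR4 lost its call without any 1 of 4 samples, and HIS7 in 21 of the 54 fits that left out 1 sample. Among arrays against MDY470 alone 6 members were higher and 7 lower (15.5% and 15.3% of all genes), and with all arrays scaled to one spread 5 were higher (27.0%). In the scaled fit 14 calls of either direction were lost with their sign kept, and LYS21 changed sign. There 4 members not called in the main fit were called with their sign kept. The effect itself differed between the arrays against MDY470 and those against MDY453 for 1 member, HIS1 (4.66% of all genes), with 0.14 against MDY470 and -0.10 against MDY453 (limma adjusted p of the difference 0.0396). At an unadjusted p under 0.05 limma gave 7 members for this effect, among them LYS1, with 0.02 against MDY470 and 0.22 against MDY453. For K16R limma found such a difference for 0 members and 0.0% of all genes, with 3 members at an unadjusted p under 0.05. These were ILV5 (0.08 against MDY470, 0.37 against MDY453), LYS1 (0.12 and 0.42) and ARO1 (0.47 and 0.22).

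All 10 general stress genes rose with the mean of these 3 sites (32.4% of all genes) and 14 of 18 aminoacyl-tRNA synthetase genes fell (31.5%). Their part in the changes of the amino acid genes was not tested.

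K16R was then set against the other 3 sites by the difference of the effects. The K16R effect minus the mean effect of K5R, K8R and K12R was higher for 16 members (8.09% of all genes) and lower for 0 (11.4%); at an unadjusted p under 0.05 limma gave 24 and 0. The 16 were 6 of 10 branched-chain, 5 of 6 lysine, 3 of 5 threonine, 1 of 10 aromatic, 1 of 4 serine and 0 of 4 histidine genes. The median difference was 0.15 over members and 0.00 over all genes. The difference was largest for ILV5 (0.32, SE 0.07, adjusted p 0.000368), LYS20 (0.29, SE 0.07, adjusted p 0.0025) and THR1 (0.27, SE 0.08, adjusted p 0.0128). THR1 was at -0.49 to 0.47 (median 0.01) with K16R and at -0.85 to 0.37 (median -0.13) without, so its samples overlapped widely. LYS21 (0.27), HOM3 (0.26), ARO2 (0.25), ILV2 (0.24), LYS4 (0.22) and LYS9 (0.21) followed. For LEU1, BAT1, LYS9, THR1 and ARO2 the K16R effect itself was not called (0.02, 0.03, 0.04, 0.09 and 0.12). The mean effect of the other 3 sites was lower for these genes (-0.14, -0.09, -0.17, -0.18 and -0.135). LYS12 was called for neither (0.10 and -0.04).

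Several of the 16 calls were close to the threshold. ILV3, LEU1 and LYS12 lost theirs in 18, 23 and 13 of the 54 fits that left out 1 sample, LEU9 in 7 and BAT1 in 3, and SER33 without the second K12R/K16R sample (0.12). Among arrays against MDY453 alone 4 members were called higher (2.98% of all genes) and against MDY470 alone 9 (2.82%). Without an intercept in the model 10 were higher (5.02%). No member was lower in any of these fits.

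**Figure D3:**
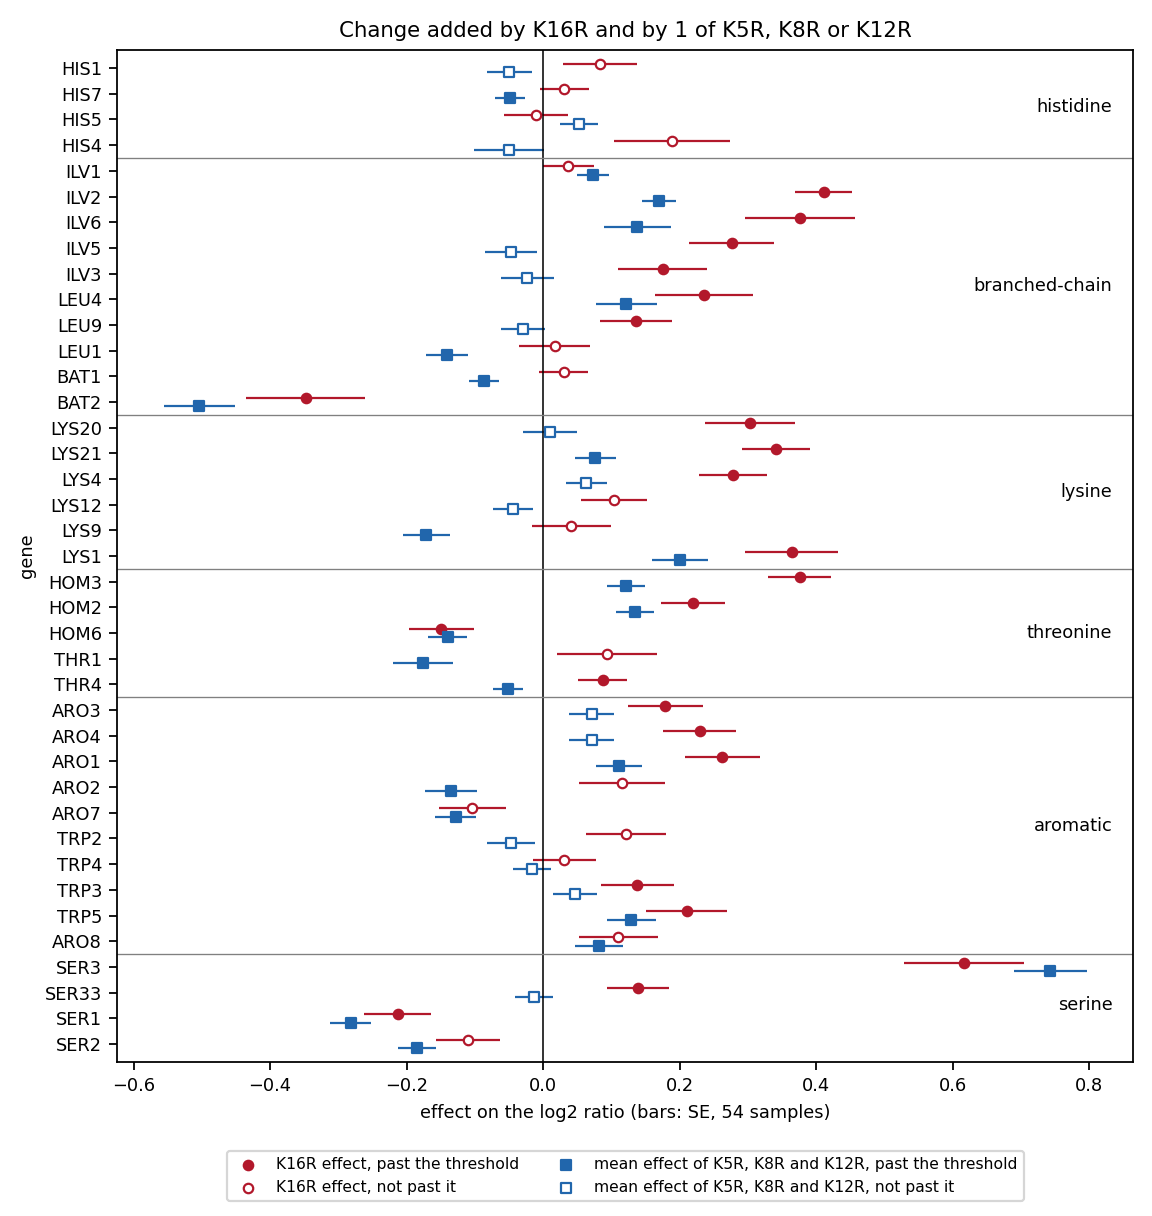
Effect on the log2 ratio (x axis, bars show the SE, 54 samples) of K16R (red circles) and of the mean of K5R, K8R and K12R (blue squares) for each gene, by route. Filled symbols are past the threshold. K16R lies right of the other sites for most branched-chain, lysine and threonine genes, and SER3 is far to the right and BAT2 far to the left for both.

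In serine synthesis SER3 had the highest effects of all members, both for K16R and for the mean of the other sites, and SER1 and SER2 were lower for the mean of the other sites. SER3 encodes phosphoglycerate dehydrogenase, the first step from glycolysis to serine. It was 1.62, 1.67, 2.23 and 1.81 in the quadruple mutant, 1.70, 2.01, 1.91, 1.89 and 1.89 in K5R/K8R/K12R, and 1.97, 2.06, 1.64 and 2.02 in K5R/K12R/K16R. It was 1.35, 1.26, 1.50 and 1.38 in K8R/K12R/K16R and 1.06, 0.91 and 1.08 in K5R/K8R/K16R. All 20 of these values lay above every value of the single and double mutants, which ran from -0.07 to 0.52.

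SER3 was called in all 5 mutants with 3 or 4 substitutions (adjusted p 3.22e-27 to 2.9e-14) and in 5 of 6 double mutants, K5R/K8R being the exception at 0.18 ± 0.13 (SD, n = 4, adjusted p 0.0706). The single mutants had means of 0.01 to 0.12 and none was called. The K16R effect on SER3 was 0.62 (SE 0.09, adjusted p 1.14e-07) and the mean effect of the other 3 sites 0.74 (SE 0.05, adjusted p 8.36e-18), with a difference of -0.13 (SE 0.10, adjusted p 0.396). These averages did not describe each background. K16R added 0.23 to 0.36 to the mean in the single mutants of the other sites, 0.84, 1.56 and 1.01 in K5R/K8R, K5R/K12R and K8R/K12R, and -0.05 in K5R/K8R/K12R. These steps between mutants are differences of means and were not tested one by one.

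SER1, phosphoserine aminotransferase, and SER2, phosphoserine phosphatase, carry out the later steps and went the other way. SER1 was -0.96, -0.89, -0.76 and -1.18 in the quadruple mutant and -0.67 to -0.13 in the 11 samples of the triple mutants with K16R, and the 5 samples of K5R/K8R/K12R lay at -0.67 to -0.32. It was lower in all 5 of these mutants (adjusted p 3.76e-17 to 0.000526) and in no single or double mutant. SER2 averaged -0.68 ± 0.15 (SD, n = 4) in the quadruple mutant and -0.27 ± 0.17 (n = 4) in K5R/K12R/K16R. It was -0.29 ± 0.11 (n = 5) in K5R/K8R/K12R, and all 3 mutants were called lower. The K16R effect was -0.21 for SER1 (SE 0.05, adjusted p 0.000454), with a lower mean in all 7 matched pairs, and -0.11 for SER2 (SE 0.05, adjusted p 0.0552). The mean effects of the other 3 sites were -0.28 (SE 0.03, adjusted p 5.78e-12) and -0.19 (SE 0.03, adjusted p 1.11e-07).

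Pairs of genes for the same step did not always move together. BAT2 encodes the cytosolic and BAT1 the mitochondrial branched-chain aminotransferase. BAT2 was -2.28, -1.37, -0.81 and -2.16 in the quadruple mutant, of which the first and last are strain MDY486. It was -0.68, -0.96, -0.99, -0.65 and -1.04 in K5R/K8R/K12R, -0.55, -0.60, -1.13 and -0.57 in K5R/K12R/K16R, and -0.55, -0.51, -0.47 and -0.90 in K8R/K12R/K16R. Each of these 4 mutants was called lower (adjusted p 6.23e-17 to 9.74e-05), and every value lay below all values of the single and double mutants, which ran from -0.25 to 0.21. K5R/K8R/K16R, at -0.34, -0.23 and -0.25, was not called (adjusted p 0.104).

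BAT1 stayed between -0.49 and 0.14 in samples with K16R and between -0.36 and 0.00 in those without. It was lower in 7 mutants, with means down to -0.27, and its mean effect of K5R, K8R and K12R was -0.09 (SE 0.02, adjusted p 0.000542). The mean effect of K5R, K8R and K12R on the difference BAT2 minus BAT1 was -0.42 (SE 0.06, adjusted p 2.89e-09), and the K16R effect on it was -0.38 (SE 0.09, adjusted p 0.000697). In the single mutant K16R the 2 genes were level, with a difference of 0.02 ± 0.04 (SD, n = 3). A permutation test over strain means, K16R labels permuted (100000 resamples, two-sided), gave a difference of -0.33 for the pair (p = 0.0529, 0.265 adjusted over 5 pairs). Unlike the fit, it took no account of K5R, K8R and K12R, so it does not check the same effect. The K16R call therefore rests on the fit alone. The K16R effect was -0.20 (adjusted p 0.149) among arrays against MDY470.

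SER33, the paralogue of SER3, was at -0.28 to 0.57 (median 0.07) with K16R and at -0.23 to 0.25 (median -0.08) without, and was called in 0 of 15 mutants. Its K16R effect was 0.14 (SE 0.05, adjusted p 0.0138). The difference SER33 minus SER3 fell by 0.76 (SE 0.05, adjusted p 4.66e-18) for the mean of the 3 other sites and by 0.48 (SE 0.09, adjusted p 1.93e-05) for K16R, and these effects differed by 0.28 (SE 0.10, adjusted p 0.0349). The permutation test over strain means, again without account of the other sites, gave p = 0.136 for K16R (0.341 adjusted over 5 pairs).

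The other 3 pairs had smaller effects. LEU9 minus LEU4 fell by 0.15 (SE 0.04, adjusted p 0.00124) averaged over K5R, K8R and K12R, with a mean of -0.62 ± 0.10 (SD, n = 4) in K5R/K12R/K16R, where LEU4 was 0.94, 0.91, 0.81 and 1.07. LYS21 minus LYS20 changed by 0.04 (SE 0.06) for K16R and 0.07 (SE 0.04) for the other sites, and ARO4 minus ARO3 by 0.05 (SE 0.05) and 0.00 (SE 0.03), none past the threshold. ARO3 was at -0.24 to 0.57 in samples with K16R and at -0.27 to 0.44 in the others. ARO4 was at -0.20 to 0.77 with K16R and at -0.24 to 0.21 without it, and the ranges of both genes overlapped widely.

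**Figure D4:**
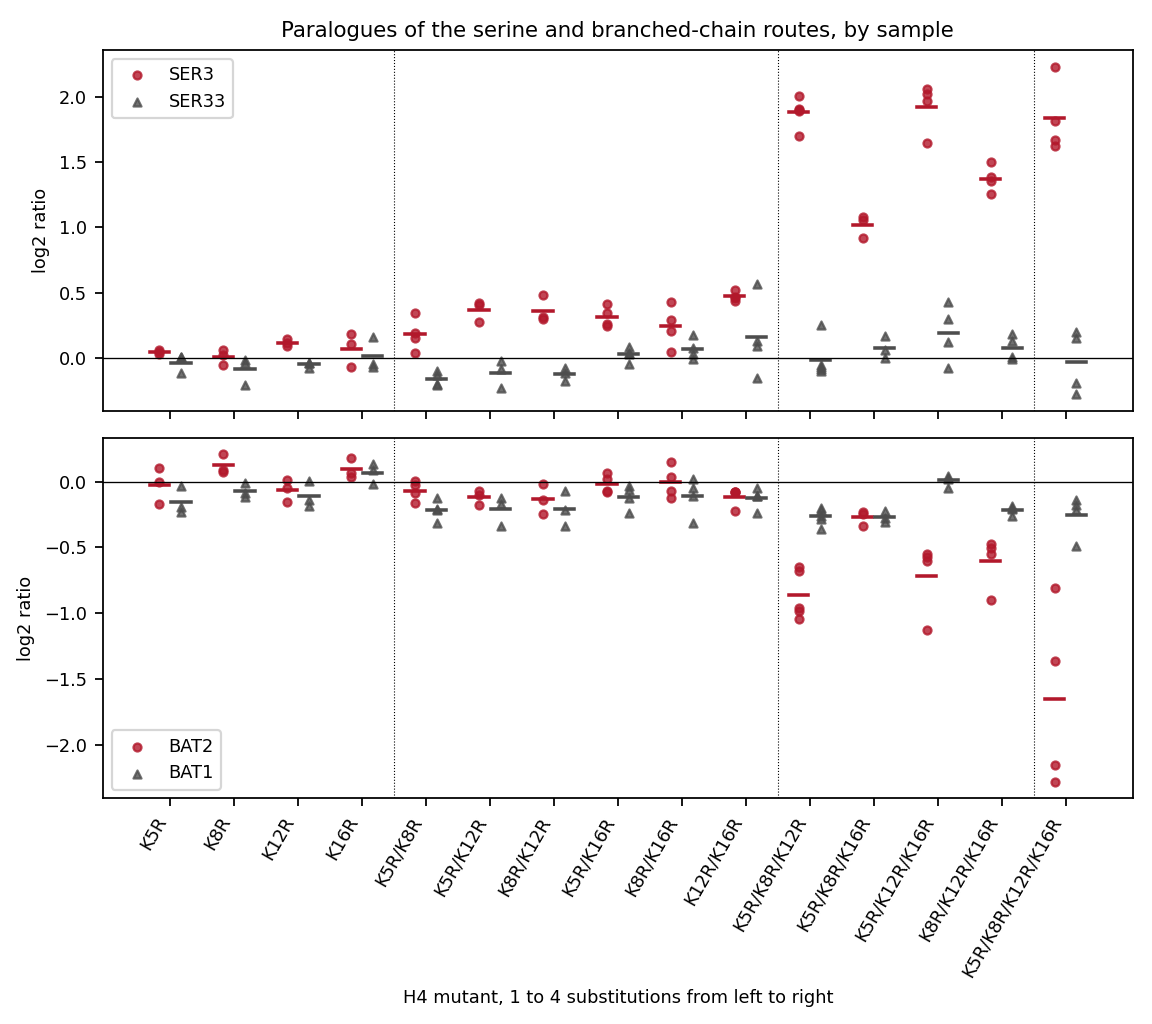
Log2 ratio by sample (points) with the mean of each mutant (bars) for SER3 and SER33 (upper panel) and BAT2 and BAT1 (lower panel), from 1 to 4 substitutions. SER3 lies above 0.9 in all samples with 3 or 4 substitutions while SER33 stays near 0, and BAT2 falls below BAT1 in K5R/K8R/K12R, K5R/K12R/K16R, K8R/K12R/K16R and the quadruple mutant.

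HIS4 and HIS1 were higher in each triple mutant with K16R and lower in the quadruple mutant, and HIS5 and HIS7 were lower in the quadruple mutant. HIS4, a multifunctional enzyme that carries out several steps of the route, was -0.88, 0.18, -0.07 and -0.93 in the quadruple mutant. It was 0.63, 0.72, 0.67 and 0.73 in K5R/K12R/K16R, 0.52, 0.58, 0.60 and 0.58 in K8R/K12R/K16R, and 0.51, 0.51 and 0.60 in K5R/K8R/K16R. The groups did not overlap, and the first and last quadruple values, the lowest, are strain MDY486. HIS4 was higher in 7 of the 8 mutants that were called and lower in the quadruple mutant.

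HIS1, ATP phosphoribosyltransferase, the committed step, was -0.28, -0.48, -0.03 and -0.21 in the quadruple mutant, against 0.11 to 0.57 (median 0.29) in the 11 samples of the triple mutants with K16R. HIS5, histidinol phosphate aminotransferase, ran from -0.36 to -0.12 in the quadruple mutant, against -0.05 to 0.39 in those 11 samples, and these also did not overlap. HIS7, imidazole glycerol phosphate synthase, ran from -0.39 to 0.14, against -0.09 to 0.18, and overlapped.

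The quadruple mutant was compared with the mean of the 3 triple mutants with K16R, a contrast chosen after these values were seen. It was higher for 6 members (30.5% of all genes) and lower for 15 (24.2%). All 4 histidine members were lower: HIS4 by a difference of -0.98 (SE 0.11, adjusted p 4.97e-10), HIS1 of -0.58 (SE 0.07, adjusted p 4.87e-09), HIS5 of -0.37 (SE 0.07, adjusted p 4.56e-06) and HIS7 of -0.18 (SE 0.07, adjusted p 0.0235). Without strain MDY486 the HIS4 difference was -0.54 (adjusted p 8.46e-06) and that of HIS7 was -0.01 (adjusted p 0.933). Against the parental strain the quadruple means of HIS4 and HIS7 without MDY486 were 0.06 and 0.03, neither called. The histidine genes outside the members did not all follow. HIS2 (-0.01, adjusted p 0.913) and HIS3 (-0.18, adjusted p 0.0642) were not called in this contrast. HIS6 was lower (-0.49, adjusted p 4.49e-08), from a mean of -0.53 in the triple mutants with K16R.

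Of the 6 lysine genes 4 were higher and 1 lower. LYS1 was higher by 0.53 (SE 0.11, adjusted p 4.98e-05), LYS4 by 0.42 (SE 0.08, adjusted p 1.34e-05), LYS20 by 0.40 (SE 0.11, adjusted p 0.00251) and LYS12 by 0.21 (SE 0.09, adjusted p 0.0353). LYS9 was lower by a difference of -0.33 (SE 0.11, adjusted p 0.0105), which was -0.02 (adjusted p 0.913) without MDY486. LYS21, at 0.20 (adjusted p 0.0732), was not called. BAT2 (-1.08, SE 0.14), SER1 (-0.55, SE 0.08), SER2 (-0.51, SE 0.08), TRP2 (-0.42, SE 0.10), LEU1 (-0.34, SE 0.10), HOM6 (-0.34, SE 0.09), ARO2 (-0.33, SE 0.12), LEU4 (-0.32, SE 0.12), TRP4 (-0.28, SE 0.08) and ARO3 (-0.26, SE 0.09) were lower too, while SER3 (0.40, SE 0.08) and ILV5 (0.32, SE 0.11) were higher. Without strain MDY486 LEU4 changed sign, to 0.09 (adjusted p 0.501), and BAT2 was -0.56 (adjusted p 0.000149). Besides HIS7 and LYS9, the calls of LYS12 (0.09), ARO2 (-0.17), ARO3 (-0.11) and TRP2 (-0.28, adjusted p 0.055) were lost without it. Leaving out 1 quadruple sample ended the calls of HIS7 and LEU4 (sample 1 or 5), ARO2 (sample 1, 2 or 5), LYS9, ARO3 (sample 5), LYS12 (sample 2 or 5) and ILV5 (sample 3); LYS12 was also lost without any one of 3 triple samples. With all arrays scaled to one spread 1 member was higher and 13 were lower (10.3% and 8.36% of all genes), and SER3 changed sign, to -0.35 (adjusted p 0.00209). Only 8 calls of this contrast held in that fit, and 12 were lost with their sign kept. The 13 lower members thus include SER3 and members not called lower in the main fit. Among arrays against MDY453, the only parental strain of the quadruple arrays, 14 calls of this contrast held and 7 were lost with their sign kept. With strain means as units 18 held and 3 were lost.

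The quadruple mutant differed from the triple mutants with K16R in other lists as well. Over all genes 30.5% were higher and 24.2% lower. All 10 stress genes were higher, with a mean per sample of 1.98 to 2.48, against 0.93 to 1.43 in those triple mutants. Of 18 aminoacyl-tRNA synthetase genes 12 were lower and 0 higher by limma (0 at an unadjusted p under 0.05), with a mean per sample of -0.46 to -0.22, against -0.18 to 0.05. In K5R/K8R/K12R the mean per sample was 1.43 to 1.76 for the stress genes and -0.34 to -0.16 for the synthetase genes. Whether these have a part in the amino acid changes was not tested.

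Its 3 strains also differed from each other. The median range over strains was 0.45 for the members and 0.31 for all genes in the quadruple mutant. In the 13 mutants with 2 strains it was 0.05 to 0.25 for the members and 0.06 to 0.22 for all genes. A range over 3 strains tends to be wider than a range over 2, so these values are not on an equal footing. LEU4 was 0.27 in MDY469, -0.26 in MDY486 and 1.02 in MDY487. ILV6 was 0.94, -0.09 and 0.87 in the same strains, and TRP3 was -0.05, -0.25 and 0.64. LYS20 was 0.64, 0.70 and 0.75, the narrowest spread of any member.

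**Figure D5:**
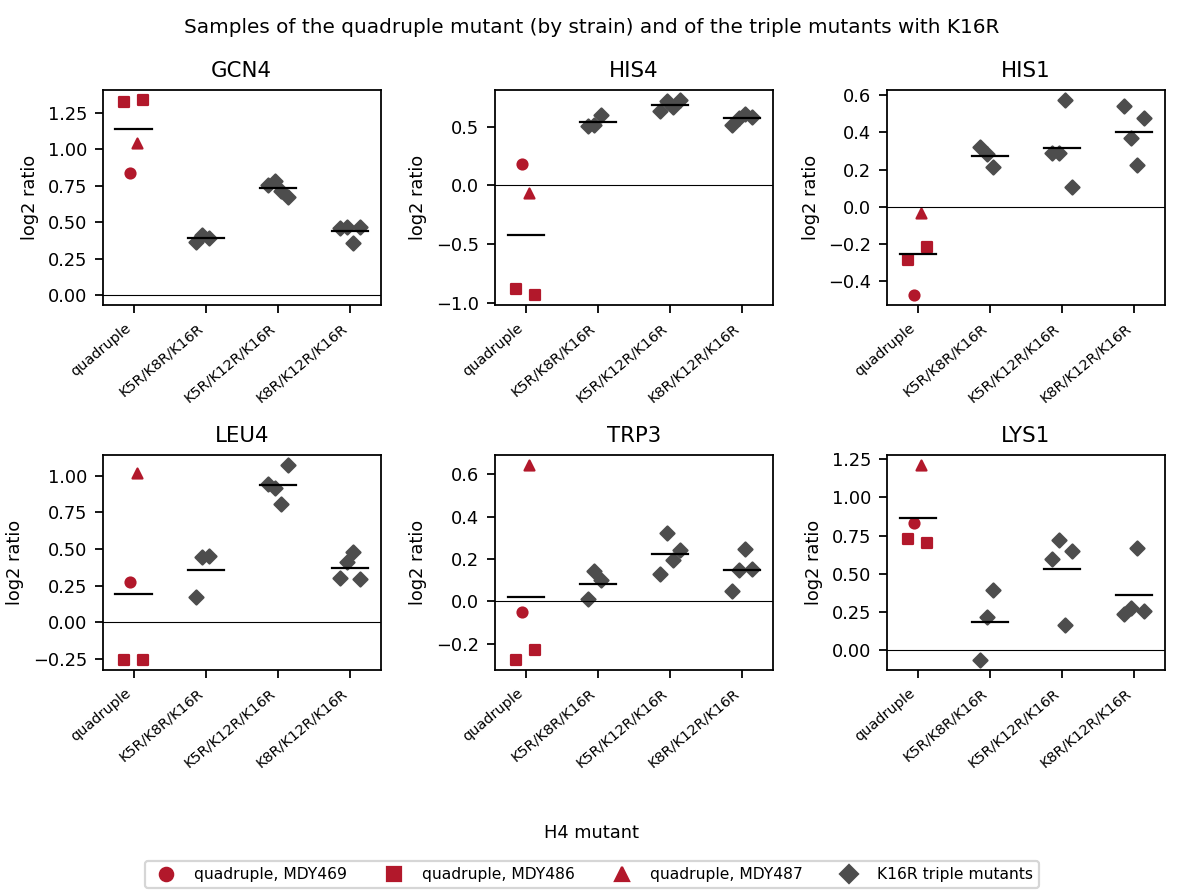
Log2 ratio by sample for GCN4 and 5 members in the quadruple mutant (red, symbols by strain) and, right of it, the triple mutants with K16R (grey). Black lines are means. HIS4 and HIS1 lie lower in the quadruple mutant without overlap, GCN4 lies higher, and LEU4 and TRP3 spread widely between the 3 quadruple strains.

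The site effects over all samples did not show this pattern of the histidine genes. Over all samples the K16R effect was 0.19 (SE 0.09, adjusted p 0.0734) for HIS4 and 0.08 (SE 0.05, adjusted p 0.226) for HIS1. Without the quadruple mutant it was 0.39 (adjusted p 3.19e-12) and 0.20 (adjusted p 7.31e-06), and the mean effect of the other 3 sites on HIS4 was 0.15 (adjusted p 1.33e-06) instead of -0.05. Without strain MDY486 alone the K16R effect on HIS4 was 0.30 (adjusted p 4.8e-06). K16R added 0.30 to 0.45 to the HIS4 mean in 6 of 7 backgrounds and -0.69 in K5R/K8R/K12R. For HIS5 and HIS7 the K16R effects were -0.01 and 0.03, and neither was called.

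Of the regulators, GCN4 and CHA4 rose and the other 6 (GCN2, LEU3, LYS14, ARO80, BAS1 and GLN3) were not called for K16R or for the other 3 sites. GCN4 was 1.33, 0.84, 1.04 and 1.34 in the quadruple mutant, 0.76, 0.78, 0.72 and 0.67 in K5R/K12R/K16R, and 0.36 to 0.47 in the 7 samples of the other triple mutants with K16R, groups that did not overlap. The K16R effect on GCN4 was 0.24 (SE 0.05, adjusted p 7.04e-05), the mean effect of the other sites 0.31 (SE 0.03, adjusted p 4.82e-14), and the quadruple minus triple difference 0.60 (SE 0.07, adjusted p 6.28e-10). The array measures GCN4 RNA, whereas its protein is set mainly by translation. CHA4, an activator of serine catabolism, had effects of 0.15 (SE 0.04, adjusted p 0.00541) and 0.09 (SE 0.03, adjusted p 0.00326). In the contrast of the quadruple with the triple mutants LEU3 (0.23), LYS14 (0.30), ARO80 (0.30) and CHA4 (0.40) were also higher and GLN3 (-0.27) was lower.

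The member with the highest correlation with GCN4 over the 54 samples was SER3 (r 0.844), and those with the lowest were BAT2 (r -0.913), SER1 (r -0.888) and SER2 (r -0.789). HIS4 had r -0.258. With HSP12, a general stress gene, r was 0.913 for SER3, -0.915 for BAT2, -0.895 for SER1, -0.825 for SER2 and -0.153 for HIS4. The correlations of these members were thus not particular to GCN4. These values describe samples that share strains. Between members the median r was 0.37 over 127 pairs within a route and 0.261 over 614 pairs between routes, highest for the aromatic route (0.514, 45 pairs) and lowest for serine (-0.06, 6 pairs).

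Of 11 genes of the same routes outside the 39, 4 were higher and 0 lower for K16R (limma, with 2 lower at an unadjusted p under 0.05), against 20.4% and 18.9% of all genes. For the mean of the other sites 2 were higher and 5 lower, against 32.4% and 31.5% of all genes. ARO9 and ARO10, which act in the breakdown of aromatic amino acids, rose with K16R by 0.34 (SE 0.07, adjusted p 4.25e-05) and 0.53 (SE 0.10, adjusted p 4.1e-05). HIS6, which acts in the middle of the histidine route, fell by 0.37 (SE 0.03, adjusted p 2.52e-18) averaged over K5R, K8R and K12R, and was -1.02 ± 0.24 (SD, n = 4) in the quadruple mutant. HIS2, a histidinol phosphatase, fell by 0.16 over the same 3 sites (SE 0.03, adjusted p 5.88e-07).

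The strain markers moved unevenly. HIS3, LEU2 and LYS2 rose with K16R by 0.29, 0.22 and 0.28 (SE 0.04 to 0.05, adjusted p 4.44e-06 to 5.14e-06), while ADE2 and MET17 fell by 0.43 (adjusted p 0.0451) and 0.34 (adjusted p 0.00205). TRP1 and URA3, with effects of -0.03 and 0.17, were not called. The sources used here do not say which of these genes the strains carry, so a change of RNA and a difference in marker alleles cannot be told apart. The other amino acid routes had 3 of 7 arginine and 8 of 13 sulfur genes higher for K16R, against 20 of the 39 members and 20.4% of all genes. Of 12 genes of the glutamate, aspartate, alanine and proline routes 4 were higher and 0 lower for K16R, and of 12 amino acid permeases 6 were higher and 0 lower (limma, with 0 lower at an unadjusted p under 0.05 in both lists). Over all genes 20.4% were higher and 18.9% lower.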

How the data were processed

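The authors deposited a table of log2 ratios per probe and array; base 2 is inferred, since no value exceeds 6.64 in size, the log2 of a 100-fold limit. The sources used here do not give dyes, background correction or normalization. Of 6720 probes, 5570 had 1 gene symbol in the platform annotation, 0 had several and 1150 none; unnamed probes were left out and probes of a gene averaged. Values at the limit (43 in named probes, 0 in members) were treated as missing. Each array was centred on its median (medians -0.0713 to 0.0534).

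Log2 ratios were fitted in limma 3.58.1 (R 4.3.3; lmFit, eBayes, two-sided) with strain as a random block (correlation 0.347 in the site model, 0.205 in the model of mutant means). Mutant means were tested against 0, without any estimate of variation in the parental strains. Printed mutant means ± SD are plain averages of samples. The paralogue differences were fitted as added rows. The scripts were tested on simulated data.

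The 39 genes and all lists were chosen with earlier results of these data known. All 39 were to be named, with sample values for the 3 highest and 3 lowest called members per site effect, the 3 largest differences and both genes of each paralogue pair, up to 4 genes of each other list, and every marker and regulator gene. Exceptions are the histidine genes, HOM3, LYS21 and GCN4, whose sample values were added after they were seen. Replicate numbers only name samples. No sequences are shown.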

Additional observations from a re-analysis of the deposited data

Results flagged for a closer look

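Single samples stood apart from the rest of their mutant in 26 of 311 groups of 4 or 5 samples tested, by a gap to the nearest sample that was large against the whole range of the group (Dixon's test). Chance alone marks about 1 in 20 groups.

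In K12R/K16R the second sample, the lone sample of strain MDY481, was the highest for HIS4 (0.98, the others 0.29 to 0.33), LEU9 (0.92) and SER2 (0.21) and the lowest for BAT2 (-0.22), and the first sample was the lowest for THR1 (-0.17). In K5R/K8R/K12R the fifth sample was the lowest for LYS20 (-0.46, the others 0.02 to 0.18) and HOM6 (-0.52) and the highest for TRP4 (0.13). The first sample of that mutant was the lowest for LEU1 (-0.66) and the highest for HOM2 (0.67), and the second, of strain MDY482, was the highest for ILV1 (0.26) and SER33 (0.25).

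In K8R/K16R the second sample was the lowest for HIS5 (-0.39) and LYS12 (-0.37) and the third the highest for ILV5 (0.40) and ARO8 (0.28). In K5R/K8R the second sample was the lowest for HIS5 (-0.19) and LEU1 (-0.57). In K5R/K12R/K16R the third sample was the lowest for BAT2 (-1.13, the others -0.60 to -0.55) and SER1 (-0.66), and the second the highest for LYS12 (-0.07).

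In K8R/K12R/K16R the third sample was the highest for LYS1 (0.67) and LEU1 (-0.12) and the first the highest for LYS4 (0.35). ARO2 was highest in the third sample of K5R/K16R (0.42) and in strain MDY487 of the quadruple mutant (0.23, the others -0.42 to -0.33).

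HIS1 differed between the arrays against MDY470 and those against MDY453: the mean effect of K5R, K8R and K12R was 0.14 and -0.10, a difference of 0.23 (SE 0.07, limma adjusted p 0.0396). The quadruple mutant was measured against MDY453 alone; among arrays against MDY453 HIS1 was at -0.48 to -0.03 in its 4 samples and at 0.11 to 0.57 in the 9 samples of the triple mutants with K16R. For that effect 258 of 5540 genes differed (4.66%) and 1 of the 39; for K16R 0 of 5540 genes and 0 of the 39 did (3 of the 39 at an unadjusted p under 0.05).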

How the results depend on the processing

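Counts kept within 1.5 times under no centring, a filter on complete genes, values at the limit kept, strain means as units, a robust prior, a term for the unexplained (s) in array titles and a term for the parental strain. Exceptions for the count of members follow. For K16R, 13 were higher among arrays against MDY453 and 9 against MDY470; 5 were lower with no strain block, 1 against MDY453, 0 against MDY470 and 0 with no intercept, and leaving out 1 sample gave 3 to 5. Averaged over K5R, K8R and K12R, 5 were higher with arrays scaled to one median absolute deviation and 6 against MDY470, where 7 were lower. For the difference, 4 were higher against MDY453, 9 against MDY470 and 10 with no intercept. For the quadruple minus triple mutants (chosen after seeing the data, as were the fits omitting MDY486 or the quadruple mutant), 1 was higher with scaling. Among arrays against MDY453, 9.89% of member and mutant pairs were higher and 5.49% lower. Of the pair calls 84 held in that fit and 98 were lost with their sign kept. The share of pairs over all genes is not given for it, so whether members exceeded other genes there cannot be read from these values. Over all genes the no-centring median moved by less than 0.1.

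Paralogues: BAT2 minus BAT1 for K16R was -0.201 against MDY470 (adjusted p 0.149), -0.087 with no intercept and -0.326 by permutation; SER33 minus SER3 was -0.359, -0.161 and -0.412. LEU9 minus LEU4 was 0.105 and 0.024 for K16R in the first 2 of these fits, and -0.019 and -0.036 for the mean of the other sites. LYS21 minus LYS20 was -0.016 for K16R against MDY453 and -0.048 with no intercept; for the other sites it was 0.124 scaled, 0.083 with no block, 0.095 omitting MDY486 and 0.133 omitting the quadruple mutant, all then called, and -0.018 with no intercept. ARO4 minus ARO3 for the other sites was -0.02 scaled, -0.009 with no block, -0.07 against MDY470, -0.007 with a parental term, -0.003 omitting MDY486, -0.045 omitting the quadruple mutant, and -0.02 to 0.014 leaving out 1 sample.

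Single genes changed sign as follows; the cause was not tested. K16R: HIS5 was 0.018 scaled, 0.026 omitting MDY486, 0.074 omitting the quadruple mutant and -0.027 to 0.001 leaving out 1 sample; LEU1 was -0.001 to 0.035 leaving out 1 sample; BAT1 was -0.043, THR1 -0.036, ARO8 -0.03 and SER2 0.023 against MDY470; TRP4 was -0.025 with no intercept. Other sites, against MDY470: HIS1 0.139, HIS4 0.184, ILV3 0.1, LEU9 0.044, LYS20 -0.016, LYS4 -0.013 and SER33 0.063. Other sites, no intercept: HIS1 0.016, HIS4 0.036, LEU9 0.043 and TRP3 -0.001. Other sites, scaled: ILV3 0.001, LYS20 -0.132, LYS21 -0.009, LYS4 -0.024 and TRP4 0.061. Other sites, omitting the quadruple mutant: HIS1 0.066, HIS4 0.153, LEU9 0.011, LYS20 -0.074, LYS4 -0.022, TRP2 0.033, TRP4 0.036 and SER33 0.025; omitting MDY486: HIS4 0.068, LYS20 -0.017 and TRP4 0.006. LYS20 was -0.008 uncentred and -0.01 with no block. Leaving out 1 sample, LYS20 was -0.008 to 0.023, TRP4 -0.024 to 0.000 and SER33 -0.031 to 0.007. For the quadruple minus triple mutants LEU4 was 0.093 omitting MDY486 and SER3 -0.35 scaled. Omitting MDY486, the quadruple means of HIS7 and HIS4 were 0.03 and 0.057.

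No paired analysis was possible because replicate numbers only count arrays within a mutant and mark no shared batch. The number of arrays, not depth, limits the precision, and the table holds no spot intensities.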
